A study of Mus musculus with 8 samples.

Results

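The loci of 10 transcription factor genes that mark mammary or general epithelial identity were examined in FAIRE-seq peak lists of mouse mammary epithelial cells. The genes were *Gata3*, *Foxa1* and *Esr1* as luminal factors, *Trp63* and *Sox9* as basal factors, and *Tfap2a*, *Tfap2c*, *Grhl2*, *Ovol1* and *Klf5* as general epithelial factors. They are 10 of 21951 protein-coding gene loci of the GENCODE annotation and were listed by name, with no threshold on a measured value. A locus was the annotated span of a gene with 50 kb on each side. Peaks of all lists were merged into regions wherever they overlapped, which gave 37230 regions in the genome and 50 at these loci. The 50 regions held 173 of the 129466 peaks. Regions are numbered within a locus by position along the chromosome.

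FAIRE-seq (formaldehyde-assisted isolation of regulatory elements) sequences the DNA that is left free of crosslinked protein, so that its peaks mark accessible chromatin. The libraries came from EpH4 cells, a mouse mammary gland epithelial line grown in 10% fetal bovine serum, and from EpRas cells, the derivative of that line that expresses an active H-Ras, grown in 4% serum. Each line was left untreated or given 1 ng/ml TGF-β3 (TGF-β) for 8 days, with 2 replicate libraries in each of 4 groups. The comparisons asked how accessible chromatin at these loci differs between the lines and with TGF-β. EpRas is a single derivative line, so that H-Ras, serum and the history of the line cannot be told apart in any difference between the lines. A site that misses the peak limit because fewer cells carry it open cannot be told apart from a site that is less open in every cell.

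The mammary gland has an inner luminal layer, which includes the hormone-sensing and milk-forming cells, and an outer basal layer of contractile cells. GATA3 is required to form and keep luminal cells, FOXA1 opens chromatin for the estrogen receptor, and *Esr1* encodes that receptor (ERα). p63, the product of *Trp63*, maintains basal cells of stratified and glandular epithelia, and SOX9 is found in basal and progenitor cells but is not exclusive to the basal layer. The AP-2 factors (*Tfap2a*, *Tfap2c*), GRHL2, OVOL1 and KLF5 act in many epithelia, and GRHL2 and the OVOL proteins are known to hold cells in the epithelial state against epithelial-mesenchymal transition (EMT).

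The lists held between 10821 and 27337 peaks per library, and no read counts. Each peak carried a score from the authors' peak caller, which is given here as a percentile, the percent of peaks in the same library with a lower score. The promoter of *Krt14* was called in 8 libraries, that of *Krt8* in 5, that of *Cdh1* in the 4 EpH4 libraries alone and that of *Krt18* in 3, whereas those of *Epcam* and *Krt5* were called in none. Promoters of immune, endothelial, hepatocyte and muscle markers (*Ptprc*, *Cd3e*, *Pecam1*, *Cdh5*, *Alb*, *Myod1*) were called in none. Of the fibroblast markers, *Pdgfra* was called in 4 libraries (2 of each line) and *Col1a1* in 2, both from EpRas cells.

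The sequences of 5 regions are shown, each called in 3 or 4 libraries of a line and in at most 1 of the other. They are a selection, since *Sox9* region 4, *Grhl2* regions 2 and 9, *Ovol1* region 3 and *Tfap2a* regions 1 and 5 also met this condition. Among those shown, *Sox9* region 6 did not separate the lines by percentile (exact permutation p = 0.143). They were read from the RefSeq genome GRCm38.p6, the build to which mm10 belongs, on the plus strand, and cover the region or its central 300 bases. Regions 2 and 4 of *Trp63* (chr16:25746855-25747149 and chr16:25780008-25780300) lie in introns of the gene. Region 5 of *Ovol1* (chr19:5580833-5581106) is intergenic, and these 3 regions were called in all EpH4 and no EpRas libraries. Region 2 of *Gata3* (chr2:9879546-9879845) is the *Gata3* promoter region and region 6 of *Sox9* (chr11:112824184-112824483) lies beyond the 3′ end of *Sox9*, and both were called mainly in EpRas cells. Capitals mark the letters searched for on both strands, which were TGAGTCA or TGACTCA for AP1, GCCNNNGGC for TFAP2 and AACCNGTT for GRHL, as well as AGATAA for GATA and TGTTTAC or TATTTAC for FOX.
Trp63 region 2: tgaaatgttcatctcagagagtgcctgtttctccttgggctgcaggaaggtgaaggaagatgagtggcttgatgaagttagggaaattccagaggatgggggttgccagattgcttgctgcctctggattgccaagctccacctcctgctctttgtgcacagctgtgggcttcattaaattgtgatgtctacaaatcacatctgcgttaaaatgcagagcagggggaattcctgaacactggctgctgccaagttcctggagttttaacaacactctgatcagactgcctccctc
Trp63 region 4: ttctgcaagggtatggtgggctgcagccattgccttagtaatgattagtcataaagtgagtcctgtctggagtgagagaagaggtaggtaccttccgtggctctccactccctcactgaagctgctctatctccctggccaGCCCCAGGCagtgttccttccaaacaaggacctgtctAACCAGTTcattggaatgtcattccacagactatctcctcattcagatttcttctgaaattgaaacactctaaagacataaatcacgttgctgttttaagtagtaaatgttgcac
Ovol1 region 5: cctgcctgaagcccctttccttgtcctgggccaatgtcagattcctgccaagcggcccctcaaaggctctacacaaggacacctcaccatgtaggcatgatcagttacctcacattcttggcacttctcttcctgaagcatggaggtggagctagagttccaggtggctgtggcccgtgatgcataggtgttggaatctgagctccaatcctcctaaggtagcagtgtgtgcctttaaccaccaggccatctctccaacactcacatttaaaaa
Gata3 region 2: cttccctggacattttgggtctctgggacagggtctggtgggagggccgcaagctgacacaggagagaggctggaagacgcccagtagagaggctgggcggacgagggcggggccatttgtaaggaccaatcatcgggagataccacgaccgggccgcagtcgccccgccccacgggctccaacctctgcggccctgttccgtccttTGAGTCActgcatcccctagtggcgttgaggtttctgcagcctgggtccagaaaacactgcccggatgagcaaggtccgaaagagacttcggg
Sox9 region 6: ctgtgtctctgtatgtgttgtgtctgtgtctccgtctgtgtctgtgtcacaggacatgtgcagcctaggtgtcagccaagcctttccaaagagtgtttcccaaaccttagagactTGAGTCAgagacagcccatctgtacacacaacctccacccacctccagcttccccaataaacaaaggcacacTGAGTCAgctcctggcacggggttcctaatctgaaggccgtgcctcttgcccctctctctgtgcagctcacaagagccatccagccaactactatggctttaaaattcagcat
Neither *Trp63* region 2 nor *Ovol1* region 5 held any of these letters. *Trp63* region 4 held a TFAP2 and a GRHL match. The *Gata3* promoter region held 1 AP1 match and *Sox9* region 6 held 2. AP1 matches were not confined to regions called mainly in EpRas cells. Among the regions that met the condition but are not shown, *Grhl2* region 9 and *Tfap2a* region 1, both called mainly in EpH4 cells, held an AP1 match.

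Peaks were found at 8 of the 10 loci. No library had a peak at *Foxa1* or *Tfap2c*, as at 19.1% of all protein-coding loci. The region nearest to the *Foxa1* start site lay 316 kb away, at the promoters of *Mipol1* and *Prps1l3*, and was called in 4 libraries. Per 10000 peaks of the library, the 1 Mb on each side of *Foxa1* held on average 0.340 in EpH4 and 1.04 in EpRas libraries. Chromosome 12 as a whole held 1.78% of peaks in EpH4 and 3.28% in EpRas libraries. For *Tfap2c*, whose product AP-2γ is abundant in luminal cells, the nearest region was 93.1 kb away and was called in 8 libraries. The 1 Mb on each side of *Tfap2c* held 11.9 and 10.4 peaks in the same order and unit. The part of the neighbourhood at either locus was not tested. *Grhl2* had 13 regions, *Trp63* 10, *Ovol1* 7, *Sox9* and *Tfap2a* 6 each, *Gata3* and *Esr1* 3 each, and *Klf5* 2. Corrected for the length of the locus, *Ovol1* was the most densely covered, with 6.28 regions per 100 kb. *Sox9* (5.69), *Grhl2* (5.64), *Tfap2a* (4.88) and *Trp63* (3.24) followed, *Gata3* (2.26) was at the median of all loci (2.25), and *Klf5* (1.72) and *Esr1* (0.607) were below it. The surroundings differed as well. Per 10000 peaks, the 1 Mb on each side of *Ovol1* held on average 64.3 in EpH4 and 53.1 in EpRas libraries. Around *Klf5* these were 3.46 and 3.79. The part of the surroundings in this order was not tested.

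In all 8 libraries, 4 of the 50 regions (8%) were called, against 11.4% of all merged regions. A further 15 (30%) were called in a single library, against 31.6%. Both shares were near those of the genome. Of the regions shared by all libraries, 3 were at *Ovol1* and 1 was an intron of *Esr1*. There were 8 regions within 2 kb of a start site of the gene itself, 8 at promoters of other genes and 34 at no promoter, of which 18 were inside the gene and 16 outside it. The share of regions at a promoter (32%) was near that of all regions (31.7%).

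**Figure D1:**
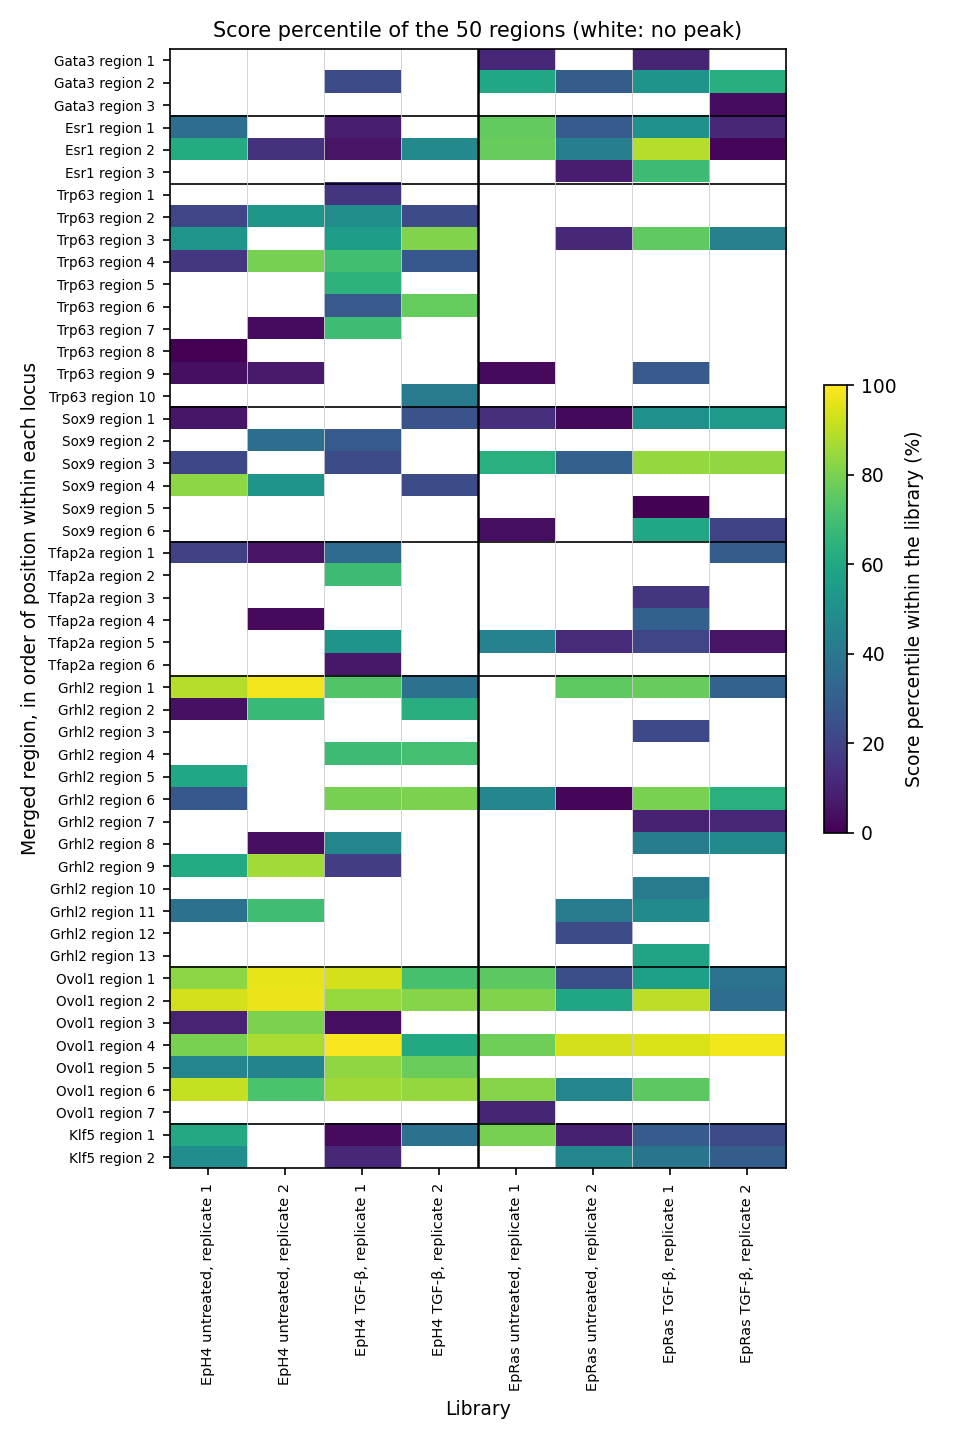
Score percentile within its library (colour, %) of each of the 50 merged regions (rows, grouped by locus) in each of the 8 libraries (columns), with white where no peak was called; the black vertical line separates the 4 EpH4 from the 4 EpRas libraries. Of the rows, 4 are filled in all 8 columns, and regions 2 and 4 of *Trp63* and region 5 of *Ovol1* are filled in all EpH4 columns and white in all EpRas columns.

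The balance between the lines differed from that of the genome. Of the 50 regions, 42% were called in more EpH4 than EpRas libraries and 40% in more EpRas than EpH4 libraries. Over all merged regions these shares were 22.6% and 56.3%. At the basal loci 10 of 16 regions were called in more EpH4 libraries and 4 in more EpRas libraries. The 2 basal loci did not lean the same way. *Trp63* held 8 of those 10, which are also 8 of the 21 member regions on the EpH4 side, and none on the EpRas side. All 4 on the EpRas side were at *Sox9* (regions 1, 3, 5 and 6), where regions 2 and 4 were on the EpH4 side. At the luminal loci 0 of 6 regions were called in more EpH4 libraries and 5 in more EpRas libraries. The general epithelial loci were even, with 11 of 28 regions on each side. These counts are a description, and no test was made over the list.

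The number of peaks at a locus was set against the length of each list, as peaks per 10000 peaks of the library. The 3 luminal loci together had 1.61 and 0.764 peaks per 10000 in untreated and 1.67 and 0.924 in TGF-β-treated EpH4 libraries. In EpRas libraries they had 2.32 and 2.90 untreated and 1.83 and 2.38 with TGF-β. The EpRas libraries thus lay above all EpH4 libraries, with means ± SD of 2.36 ± 0.439 against 1.24 ± 0.465 (n = 4 each). For the 2 basal loci the order was the opposite, with 5.62 ± 0.965 in EpH4 and 2.27 ± 0.0977 in EpRas libraries, whose ranges were 4.58 to 6.47 and 2.18 to 2.38. The 5 general epithelial loci also had more in EpH4 libraries (10.2 ± 1.28, range 9.24 to 12.0) than in EpRas libraries (6.35 ± 1.37, range 4.65 to 7.98). When the same number of highest-scored peaks was taken from each library, the luminal libraries of the lines overlapped (0.693 ± 0.885 in EpH4 and 2.08 ± 0.885 in EpRas), whereas the basal and the general epithelial ones stayed apart. With 20 kb on each side the general epithelial ranges overlapped as well, and among peaks above the median score the luminal and basal ranges did. By raw number of peaks, the basal (6 to 9 in EpH4 and 3 to 6 in EpRas libraries) and the general epithelial ranges (10 to 17 and 8 to 17) overlapped. Most of the basal difference was that of *Trp63* (-3.24 peaks per 10000, EpRas minus EpH4), with -0.115 at *Sox9*. The general epithelial difference lay mainly at *Ovol1* (-2.08) and *Grhl2* (-1.58). It was -0.242 at *Tfap2a* and 0.0768 at *Klf5*, and *Tfap2c* had no peak. Most of the luminal difference was that of *Gata3* (0.812), with 0.304 at *Esr1* and no peak at *Foxa1*.

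**Figure D2:**
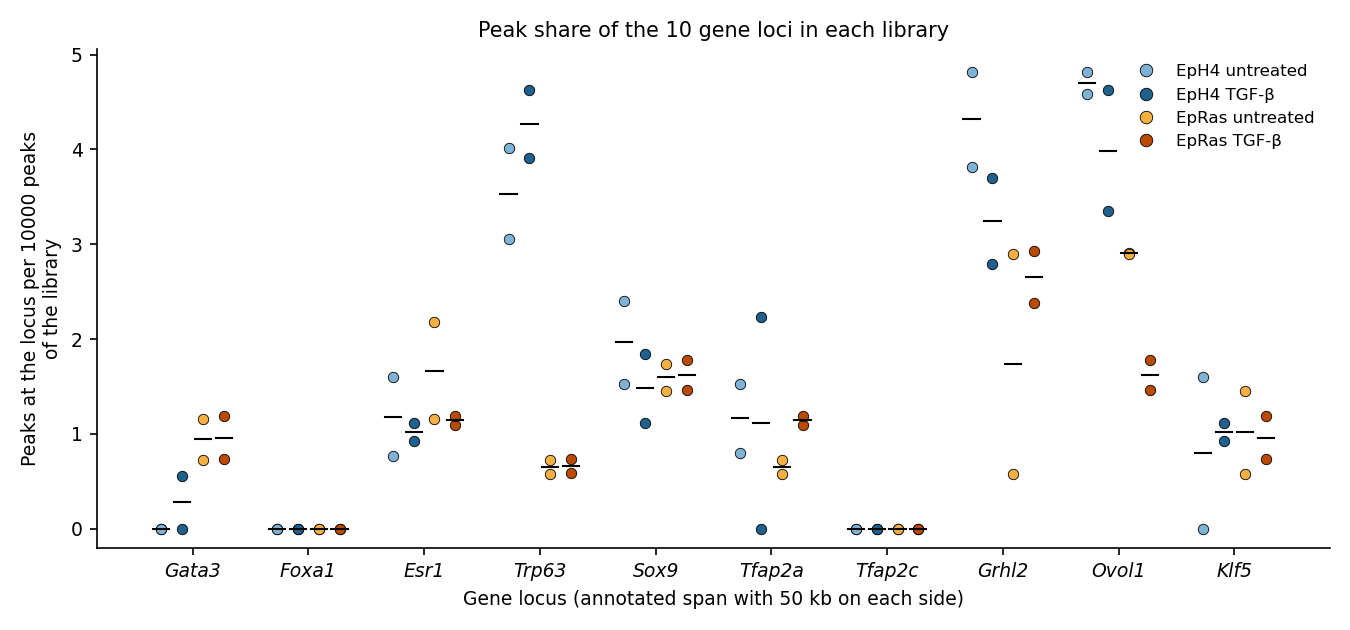
Peaks at each of the 10 loci per 10000 peaks of the library (vertical axis), with a point for each of the 8 libraries coloured by group and a bar at each group mean (n = 2). The EpRas points lie below all EpH4 points at *Trp63* and *Ovol1* and above them at *Gata3*, while *Foxa1* and *Tfap2c* are at 0 in every library.

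Each locus was compared between the lines by an exact permutation test of the 4 EpRas against the 4 EpH4 libraries, two-sided, for which 0.0286 is the smallest possible p. This p is reached when the libraries of the lines do not overlap, and 12.2% of the 17752 loci with a peak met that condition. Among the members it was met by 3 of the 8 loci with peaks, *Trp63*, *Ovol1* and *Gata3*. EpH4 libraries were higher at 2 of the 8, *Trp63* and *Ovol1*, against 6.88% of all loci. Among all loci that separated the lines, 56.2% were higher in EpH4 libraries, and 2 of the 3 members were. After Benjamini-Hochberg adjustment of these exact permutation tests over all loci, the lowest p was 0.233, so that no locus passed 0.05. The adjustment cannot single out a locus here, since an adjusted p passes 0.05 only if most loci reach the smallest p. The median difference (EpRas minus EpH4) was -0.179 peaks per 10000 over the 8 member loci and 0.0272 over all loci tested.

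*Trp63* showed the largest difference of the 8 loci in peaks per 10000 over the whole lists, though among peaks above the median score those of *Ovol1* (-5.56) and *Grhl2* (-3.74) were larger. It had 5 and 4 peaks in the untreated and 7 and 5 peaks in the TGF-β-treated EpH4 libraries, but 1, 1, 2 and 1 peaks in the EpRas libraries. These correspond to 4.01, 3.06, 3.91 and 4.62 peaks per 10000 in EpH4 and to 0.581, 0.725, 0.732 and 0.594 in EpRas cells. The highest EpRas library was well below the lowest EpH4 library, and the means were 3.90 ± 0.644 and 0.658 ± 0.0816 (n = 4 each, exact permutation p = 0.0286). Chromosome 16 as a whole held 3.91% of peaks in EpH4 and 2.90% in EpRas libraries, without overlap. The stretch of 1 Mb on each side of the *Trp63* locus held 18.5 ± 2.95 peaks per 10000 in EpH4 and 12.4 ± 1.22 in EpRas libraries, also without overlap. As peaks per 1000 peaks of chromosome 16, a setting chosen after the data were seen, the *Trp63* difference was -7.66 and the lines still did not overlap. The part of the neighbourhood in the difference was not tested. Among peaks above the median score alone, 1 EpH4 library had no peak at the locus and the lines overlapped (-3.07, exact permutation p = 0.143).

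Of the 10 *Trp63* regions, 8 were called in EpH4 libraries alone, 4 of them in a single library, and none in EpRas libraries alone. Over all merged regions, 14.2% were called in EpH4 and 36.9% in EpRas libraries alone. *Trp63* has an upstream start site, and internal start sites that give the ΔN isoforms, the main form in basal cells. Region 2 lies 54.9 kb and region 4 lies 21.8 kb upstream of the internal start sites, both in introns of the longer transcripts. Region 2 was at percentiles 20.7 and 52.8 in untreated and 49.6 and 22.7 in TGF-β-treated EpH4 libraries, and was not called in any EpRas library. Region 4 was at 15.9, 79.4, 69.9 and 27.3 in the same order, again with no EpRas call. Region 2 thus stayed in the lower and middle part of the EpH4 lists, and region 4 ranged from the lower to the upper part. Region 3, between them at 24.2 kb upstream of the internal start sites, was shared by the lines, with percentiles of 52.2, 55.9 and 81.1 in 3 EpH4 libraries and 11.5, 75.5 and 43.5 in 3 EpRas libraries. It held an AP1 match, which regions 2 and 4 did not. Region 6, an intronic region 33.6 kb downstream of the internal start sites, was called in the 2 TGF-β-treated EpH4 libraries alone (percentiles 27.9 and 76.3). Region 5, the *Trp63* region of highest mean percentile, rested on the first TGF-β-treated EpH4 library alone (64.8). No library had a peak at a *Trp63* promoter.

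Across the 50 regions, 3 were called in all EpH4 and no EpRas libraries, against 0.752% of all merged regions. These were regions 2 and 4 of *Trp63* and region 5 of *Ovol1*. The converse, all EpRas and no EpH4 libraries, was met by 0 of the 50 and by 1.98% of all regions. When the first TGF-β-treated EpH4 library was left out, the number of regions that separated the lines by their calls rose from 3 to 7, and without the second it was 5. When only peaks above the median score were kept, it was 0. The condition is easier to meet with a library left out, and the share over all regions is not given for these settings.

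**Figure D3:**
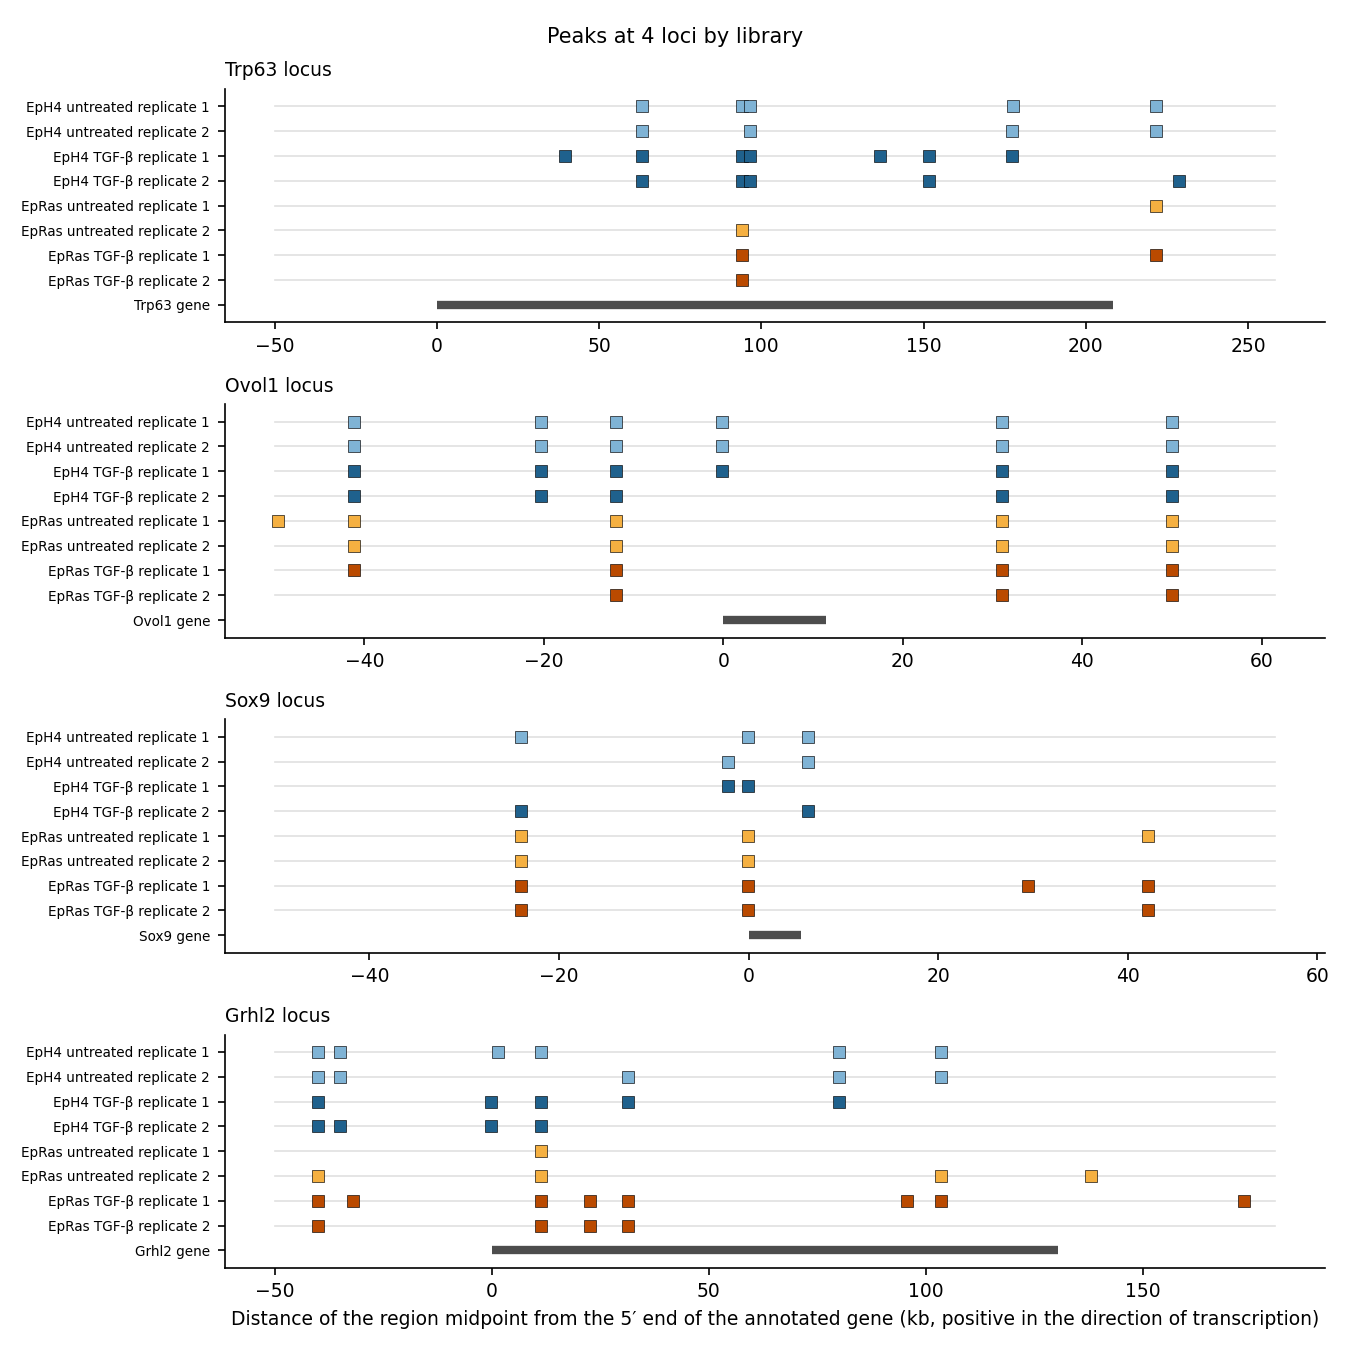
Peaks at the *Trp63*, *Ovol1*, *Sox9* and *Grhl2* loci, with a row for each of the 8 libraries, a square at the midpoint of each called region (horizontal axis, kb from the 5′ end of the annotated gene) and a bar for the gene. At *Trp63* the EpRas rows hold 1 or 2 squares and the EpH4 rows 4 to 7, and at *Ovol1* the squares at the gene start and 20.3 kb upstream are present in EpH4 rows alone.

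*Ovol1*, which encodes a zinc finger transcriptional repressor, differed in the same direction as *Trp63*. It had 6, 6, 6 and 5 peaks in EpH4 libraries and 5, 4, 4 and 3 in EpRas libraries. As shares these were 4.82, 4.58, 3.35 and 4.62 against 2.91, 2.90, 1.46 and 1.78 peaks per 10000. The lines did not overlap (4.34 ± 0.671 and 2.26 ± 0.751, exact permutation p = 0.0286), but the raw numbers of peaks did, at 5 in both lines. The 1 Mb on each side held 64.3 ± 7.34 peaks per 10000 in EpH4 and 53.1 ± 8.21 in EpRas libraries, with overlap, and chromosome 19 as a whole overlapped as well.

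The lines differed in their calls at a few of the *Ovol1* regions. The promoter, region 3, was at percentiles 9.48 and 80.2 in the untreated EpH4 libraries and 3.80 in the first TGF-β-treated one, and was not called in the other libraries. Region 5, 20.3 kb upstream of the start site, was at 45.7, 45.2, 83.2 and 77.2 in EpH4 cells and was not called in EpRas cells. Both therefore appeared in EpH4 cells alone, region 5 in all 4 libraries. Between them, region 4 at 11.9 kb upstream was called everywhere and ranked high throughout, at 79.9, 87.4, 98.9 and 60.7 in EpH4 and 77.8, 93.4, 94.3 and 97.7 in EpRas libraries. Its means of 81.7 ± 16.1 and 90.8 ± 8.88 did not differ beyond their spread (exact permutation p = 0.4). The 3 regions at promoters of neighbouring genes (*Snx32*, *Rnaseh2c* and *Kat5*) included 1 that was called in all libraries, *Ovol1* region 1, at percentiles 83.0, 96.5, 93.7 and 71.1 in EpH4 and 74.8, 23.9, 56.5 and 38.2 in EpRas libraries. The lines touched at this region only through the first untreated EpRas and the second TGF-β-treated EpH4 library (exact permutation p = 0.0571). None of the 7 *Ovol1* regions held an AP1 match.

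*Grhl2*, which encodes a grainyhead factor that binds epithelial enhancers, had the most regions of all members. It had 6, 5, 5 and 4 peaks in EpH4 libraries and 1, 4, 8 and 4 in EpRas libraries. The shares were 4.82, 3.82, 2.79 and 3.70 against 0.581, 2.90, 2.93 and 2.38 peaks per 10000, so that EpH4 libraries were higher on average (3.78 ± 0.829 and 2.20 ± 1.11) but the lowest EpH4 library lay within the EpRas range (exact permutation p = 0.0857). With equal numbers of peaks the lines did not overlap (-2.08, exact permutation p = 0.0286), nor did they without the first TGF-β-treated EpH4 library (-1.91). They overlapped with 20 kb on each side (-0.803, exact permutation p = 0.0571) and as raw number of peaks (-0.75, exact permutation p = 0.714). Without the first untreated EpRas library, which had 1 peak, the difference was -1.04 and the lines overlapped. The *Grhl2* promoter (regions 4 and 5) was called in 3 EpH4 libraries and no EpRas library, at percentile 59.4 in the first untreated and 68.7 and 69.9 in the TGF-β-treated libraries. Regions 2 and 9 were likewise called in 3 EpH4 libraries and no EpRas library, at 4.67, 67.4 and 62.7 and at 61.2, 86.1 and 18.4. Region 1, 40 kb upstream, ranked high in EpH4 cells (88.9, 98.2, 73.0 and 37.2) and was called in 3 EpRas libraries (75.3, 76.9 and 31.4).

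*Gata3* was the only luminal locus at which the lines did not overlap, and here the EpRas libraries were higher. It had 0, 0, 1 and 0 peaks in EpH4 libraries and 2, 1, 2 and 2 in EpRas libraries, or 0.140 ± 0.279 and 0.952 ± 0.258 peaks per 10000 (exact permutation p = 0.0286). These are small numbers, and the lines overlapped when each list was cut to the same length (0.693, exact permutation p = 0.143). Region 2, 1.10 kb upstream of a start site of *Gata3* and shared with the promoter of 4930412O13Rik, was at percentile 23.2 in the first TGF-β-treated EpH4 library and was not called in the other 3. In EpRas libraries it was at 59.9 and 29.4 untreated and 51.8 and 63.2 with TGF-β, above every EpH4 value. Chromosome 2 held 5.97% of peaks in EpH4 and 7.76% in EpRas libraries, and the 1 Mb on each side of the locus held 1.24 ± 0.465 and 3.96 ± 1.63 peaks per 10000, neither with overlap. Their part in the result was not tested, and as peaks per 1000 peaks of chromosome 2 the *Gata3* difference of 0.999 kept the lines apart.

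*Esr1* had 2, 1, 2 and 1 peaks in EpH4 libraries and 2, 3, 3 and 2 in EpRas libraries. The shares of 1.10 ± 0.365 and 1.41 ± 0.515 peaks per 10000 did not differ beyond their spread (exact permutation p = 0.457). Its promoter region 1 was at percentiles 36 and 8.21 in the first untreated and the first treated EpH4 library, and at 75.8, 28.9, 50.9 and 11.5 in EpRas libraries. Region 2, in an intron 9.13 kb downstream of a start site, was called in all libraries at percentiles from 1.25 to 88.7. Region 3, deep in the gene, was called in 2 EpRas libraries. All 3 *Esr1* regions held an AP1 match. The study's methods state, from RNA-seq at an earlier time than these lists, that EpRas cells lack ERα expression. These peaks are therefore not a measure of *Esr1* expression.

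*Sox9* had similar numbers of peaks in EpH4 (3, 2, 2 and 2) and EpRas libraries (3, 2, 4 and 3), with shares of 1.73 ± 0.545 and 1.61 ± 0.177 peaks per 10000 (exact permutation p = 0.686). The regions behind these numbers were not the same. The promoter, region 3, was at 21.5 and 23.0 in 2 EpH4 libraries and at 63.3, 30.5, 84.0 and 83.8 in EpRas libraries, with no overlap (exact permutation p = 0.0286). Region 4, 6.28 kb downstream of the start site and just past the end of the gene, was called in EpH4 cells alone, at 83.1, 51.7 and 23.1. Region 2, 2.16 kb upstream, was also called in EpH4 cells alone (2 libraries). Region 1, 24 kb upstream with AP1 and TFAP2 matches, was low in 2 EpH4 libraries (5.89 and 25.6) and in the untreated EpRas libraries (13.9 and 2.03), and higher in the TGF-β-treated EpRas libraries (50.2 and 54.0). Region 6, 42.1 kb downstream at the promoter of 4933434M16Rik, was called in EpRas cells alone, at 3.58, 59.8 and 20.5. Within 20 kb of the gene the EpH4 libraries had more peaks per 10000, with no overlap (-0.726, exact permutation p = 0.0286). The raw numbers of peaks there did touch. The second TGF-β-treated EpH4 library had region 4 alone (0.924 peaks per 10000), and each EpRas library had region 3 alone (0.366 to 0.726).

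*Tfap2a* and *Klf5* overlapped between the lines. *Tfap2a*, which encodes AP-2α, had 1, 2, 4 and 0 peaks in EpH4 and 1, 1, 3 and 2 in EpRas libraries (1.14 ± 0.958 and 0.898 ± 0.291 peaks per 10000, exact permutation p = 0.657). Its promoter region 5 was at percentile 51.6 in the first TGF-β-treated EpH4 library and at 44.3, 12.1, 21 and 5.44 in EpRas libraries. Region 2, in a coding exon, was the *Tfap2a* region of highest mean percentile and rested on the first TGF-β-treated EpH4 library alone (68.6). *Klf5*, which encodes a Krüppel-like factor of dividing epithelial cells, had 2, 0, 2 and 1 peaks in EpH4 and 1, 2, 2 and 2 in EpRas libraries (0.911 ± 0.672 and 0.988 ± 0.402, exact permutation p = 0.886). Its promoter, region 1, was called in 3 EpH4 libraries (60.4, 2.94 and 37.2) and in all EpRas libraries (79.5, 8.88, 28.9 and 23.1). Its other region, 25.6 kb downstream with an AP1 match, was at 49.2 and 11.5 in 2 EpH4 libraries and at 46.1, 38.7 and 29.5 in 3 EpRas libraries.

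Taken by score, 5 of the 50 regions had percentiles that did not overlap between the lines, with regions not called set to 0. EpH4 libraries were higher at 3, the regions called in all EpH4 and no EpRas libraries that are named above, against 1.49% of all merged regions. A region with such calls must separate the lines in this way, so that these 3 repeat the count by calls. EpRas libraries were higher at 2, the promoter regions of *Gata3* and *Sox9*, against 4.72% of all regions. The *Sox9* promoter had means of 11.1 ± 12.9 in EpH4 and 65.4 ± 25.2 in EpRas libraries, and the *Gata3* promoter 5.80 ± 11.6 and 51.0 ± 15.2 (n = 4 each). The lowest p by line over all regions, adjusted from these exact permutation tests, was 0.460. As for the loci, it could pass 0.05 only if most regions reached the smallest p. Without either TGF-β-treated EpH4 library in turn the number of such regions was 8, and it was 0 among peaks above the median score. Again the condition is easier to meet with a library left out, and the share over all regions is not given for these settings.

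The promoters divided the members into groups. *Gata3*, *Esr1*, *Sox9*, *Tfap2a* and *Klf5* had a promoter peak in all 4 EpRas libraries, that is, 5 of 10 genes against 18.5% of all protein-coding genes. All 5 were called in fewer EpH4 libraries (1, 2, 2, 1 and 3), and 20.4% of all promoters were called in more EpRas than EpH4 libraries. *Grhl2* and *Ovol1* had a promoter peak in 3 EpH4 libraries and no EpRas library, and 7% of all promoters were called in more EpH4 than EpRas libraries. No member had a promoter peak in all 4 EpH4 libraries, against 12.7% of all genes, but 2 (*Grhl2* and *Klf5*) had it in the other 3 when the second untreated library was left out, and 1 (*Ovol1*) when the second TGF-β-treated library was. Over all genes the shares in these 2 settings were 14.3% and 16.0%. *Foxa1*, *Trp63* and *Tfap2c* had none in any library.

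The promoter counts moved with single libraries and with the length of the lists. The 4 EpRas libraries each had a peak at 5 member promoters, whereas the EpH4 libraries had 5 and 1 untreated and 7 and 2 with TGF-β. Over all genes, the EpH4 libraries had a peak at 22.2% and 23.1% (untreated) and 28.1% and 19.1% (TGF-β) of promoters, and the EpRas libraries at 30.0%, 25.1%, 35.6% and 25.3%. With equal numbers of peaks per library, only *Sox9* kept a promoter peak in all 4 EpRas libraries, against 12.1% of all genes. That setting was chosen after the data were seen.

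**Figure D4:**
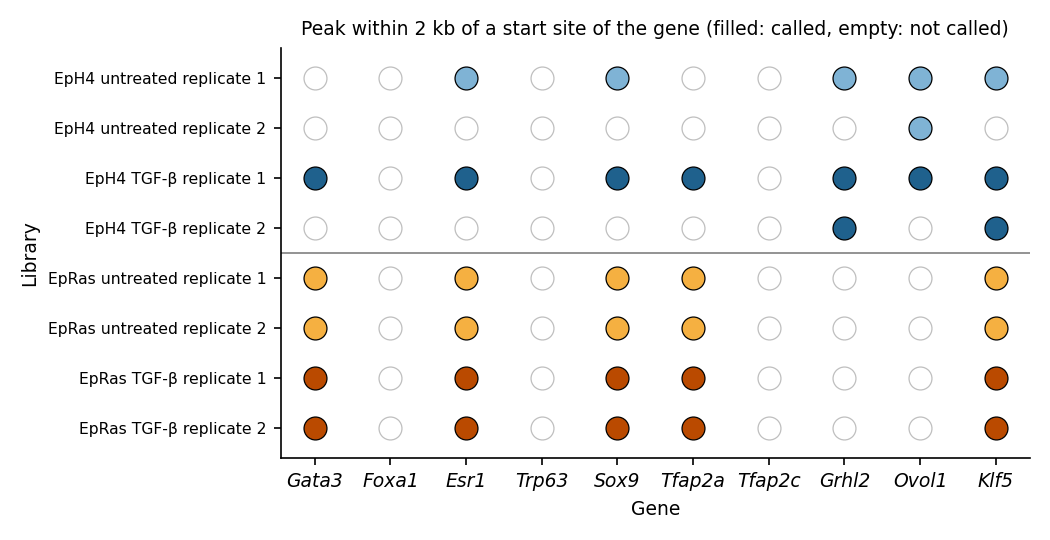
Peaks within 2 kb of a start site of each of the 10 genes (horizontal axis) in each of the 8 libraries (vertical axis), filled where called and coloured by group. *Gata3*, *Esr1*, *Sox9*, *Tfap2a* and *Klf5* are filled in all 4 EpRas rows, *Grhl2* and *Ovol1* in 3 EpH4 rows and no EpRas row, and *Foxa1*, *Trp63* and *Tfap2c* in none.

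TGF-β was compared with no treatment over the 4 treated and 4 untreated libraries. At none of the 8 loci did the libraries separate by treatment, a condition met by 2.95% of all loci. The mean share was higher with TGF-β at 4 loci and lower at 4, with a median difference of -0.000723 peaks per 10000 over the members and -0.0687 over all loci. The largest difference was at *Ovol1*, at 3.80 ± 1.04 peaks per 10000 untreated and 2.80 ± 1.46 with TGF-β (n = 4 each, exact permutation p = 0.371). Within EpRas cells both treated libraries were below both untreated ones at *Ovol1* (1.46 and 1.78 against 2.91 and 2.90), whereas the EpH4 libraries overlapped. The lowest p by treatment over all loci, adjusted from these exact permutation tests, was 0.939. At none of the 8 loci did the TGF-β effect differ between the lines by the test. The lowest p of that difference was 0.389, at *Sox9* and *Grhl2*, by an exact permutation test with a smallest possible p of 0.0556.

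Single regions were compared between the treatments in the same way. Of the 50 regions, 0 were called in all libraries of a treatment and none of the other, against 0.338% of all regions. Percentiles did not overlap between the treatments at 1 region (2%), *Grhl2* region 6, against 1.35% of all regions, a share near that of the genome. This region, in a *Grhl2* intron 11.5 kb downstream of the start site and at the promoter of Gm16137, was at 27.5, not called, 46.4 and 1.71 in the untreated libraries. With TGF-β it was at 79.5 and 80.1 in EpH4 and 80.0 and 63.3 in EpRas libraries, so that every treated library of both lines lay above every untreated one. The means were 75.8 with TGF-β and 18.9 without (exact permutation p = 0.0286), and the lowest p adjusted over all regions in these exact permutation tests was 1. The region held an AP1 match. The number of regions that separated the treatments was 1 to 3 when single libraries were left out, with 3 without the second TGF-β-treated EpH4 library and 2 without the first untreated EpH4, the first TGF-β-treated EpH4 or the second TGF-β-treated EpRas library. Here too the condition is easier to meet with a library left out, and the share over all regions is not given for these settings.

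In both TGF-β-treated EpH4 libraries and no other, 2 regions were called, *Trp63* region 6 and *Grhl2* region 4, against 0.86% of all regions. *Grhl2* region 4, at the promoter, was at 68.7 and 69.9. In both treated EpRas libraries and no other, 1 region was called, *Grhl2* region 7 in an intron (percentiles 9.31 and 11.6), against 4.21% of all regions. That region was thus low in both lists.

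The letters of binding motifs were counted in the central 300 bases of each region. An AP1 match was found in 16 of the 50 regions (32%) and in 34.7% of all regions, and outside promoters in 32.4% and 44.2%. TFAP2 letters were in 14% of the member regions and 13.3% of all, GATA letters in 4% and 10.7%, and FOX letters in 6% and 7.67%. GRHL letters were in 4 member regions (8%) and 2.48% of all. Regions with GRHL letters included *Gata3* region 3, *Trp63* region 4 and *Tfap2a* region 1, and none was at *Grhl2* itself. AP1 matches were found at 4 of 6 *Sox9* regions and 4 of 13 *Grhl2* regions. Median GC content was 49.5% in the member regions and 49% in all. A match is a run of letters and says nothing of binding.

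Another 22 factors of the same classes gave a wider view. A peak was found at 19 of them, and the lines did not overlap at 4. *Xbp1*, a luminal factor of secretory cells, was higher in EpRas libraries (0.671 ± 0.474 in EpH4 and 2.09 ± 0.657 peaks per 10000 in EpRas), as was the p53 relative *Trp73* (0.140 ± 0.279 and 0.658 ± 0.0816). *Tbx3*, a T-box factor of mammary development, was higher in EpH4 libraries (1.47 ± 0.483 and 0.658 ± 0.0816), as was *Zfp750*, a factor of epidermal differentiation (1.13 ± 0.503 and 0.513 ± 0.348). Each had an exact permutation p of 0.0286 and an adjusted p of 0.233 over all loci. These rest on few peaks, and the raw numbers overlapped between the lines at all but *Xbp1*. *Trp73* had 0, 0, 1 and 0 peaks in EpH4 and 1, 1, 2 and 1 in EpRas libraries. *Tbx3* had 2, 1, 3 and 2 against 1, 1, 2 and 1, and *Zfp750* had 1, 1, 2 and 2 against 0, 1, 2 and 1. None of the 22 separated by treatment. The 4 in 19 stand beside the 12.2% of all loci given above, and the luminal and basal classes did not divide by line in this wider list, with 1 luminal factor on each side.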

How the data were processed

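FAIRE-seq libraries of EpH4 and EpRas cells were analysed from the deposited peak lists, 1 list per library. According to the study's methods and the labels, the authors trimmed Ion Proton reads, aligned them to mm10 using bowtie2 and used MACS2 version 2.0.9 to call peaks at a q-value limit. Use of a control library and handling of duplicate reads are not given in the sources used here. The deposited score of each peak has no stated scale and was used only to rank peaks within a library (percentile, ties counted in the middle). With no counts, depth is unknown and no count model could be fitted, and the number of peaks per list stands in its place. Median peak width was 248 to 260 bp.

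The labels gave groups and replicate numbers, and the study's methods describe the FAIRE-seq replicates as biological. P-values rank the observed difference among other assignments of the same libraries. Each side of 4 libraries pools both treatments, or both lines, so that its SD also holds that factor. Peaks overlapping by at least 1 bp were merged. Genes and start sites were those of GENCODE M21 (basic set), and sequence was RefSeq GRCm38.p6. A promoter region had its midpoint within 2 kb of a start site. Means of 4 against 4 libraries were compared by exact permutation over all 70 assignments, two-sided, with Benjamini-Hochberg adjustment over all loci or regions. An adjusted p passes 0.05 only if most loci or regions reach the smallest p, for lines and treatments alike. The difference of TGF-β effects used 36 assignments of line labels within treatments. All 10 genes were named. The regions named were the promoters, the region of highest mean percentile at each locus, those called in all libraries of a line, treatment or group and no other, and those called in all 8 libraries whose percentiles did not overlap. Regions outside this rule were named after their values were seen. These are *Trp63* region 3, *Sox9* regions 1, 2, 5 and 6, *Grhl2* regions 1, 2, 6 and 9, *Esr1* region 3, *Ovol1* regions 1, 6 and 7, *Gata3* region 3 and *Tfap2a* region 1. The genes, lists and tests were chosen with earlier results of these data known. Scripts (Python 3.11.15, numpy 2.4.6, pandas 2.3.3, scipy 1.17.1) were tested on simulated peak lists. The sequence of the *Ovol1* promoter region is not reported here.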

Additional observations from a re-analysis of the deposited data

How the results depend on the processing

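Lists without counts limit these results, since a site below the peak limit is not the same as a closed site, and most loci held few peaks. With equal numbers of peaks per library 3 loci again separated the lines, but *Gata3* was lost (0.693) and *Grhl2* gained (-2.08), and the number of regions called in all libraries of a line and none of the other was 3, as in the whole lists. Among peaks above the median score the counts were 1 locus and 0 regions, 1 region was called in all libraries of a treatment and none of the other, and 0 regions separated the lines by percentile. By raw number of peaks 1 locus separated the lines. Ranked among regions called in all 8 libraries, 1 region separated the lines and 0 the treatments, and 0 separated the treatments without regions at promoters of other genes. Members with a promoter peak in all EpRas libraries fell from 5 to 1 with equal numbers of peaks and to 0 above the median score.

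Leaving out each library in turn gave 3 to 7 regions that separated the lines by calls, 5 to 8 by percentile, 1 to 3 that separated the treatments by percentile, 3 to 4 loci by line, and 0 to 2 members with a promoter peak in all EpH4 libraries. These conditions are easier to meet with a library left out. The shares over all regions or loci are not given for these settings. The labels do not say whether libraries with the same replicate number were handled together. Replicate differences correlated at -0.00356 to 0.0314 between groups, which does not settle it. With the replicate block, 8 regions separated the lines and 2 the treatments by percentile, and the counts of loci did not change. Separation within each replicate number is a looser condition, and its share over all regions is not given.

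The difference between the lines (EpRas minus EpH4) reversed at 3 loci. *Klf5* went to -0.231 with equal numbers of peaks, -0.00466 above the median score and -1.30 per 1000 peaks of its chromosome, *Sox9* to 0.824 above the median score and 0.75 as raw number, and *Tfap2a* to 0.14 with 20 kb on each side. Leaving out single libraries it ranged from -0.227 to 0.308 at *Klf5*, -0.318 to 0.113 at *Sox9* and -0.622 to 0.121 at *Tfap2a*. The difference with TGF-β reversed at *Gata3* (-0.231) and *Klf5* (-0.693) with equal numbers of peaks, at *Sox9* (0.215) and *Klf5* (-0.614) above the median score, at *Sox9* (0.25) and *Grhl2* (1.25) as raw number, and at *Grhl2* without promoters of other genes (0.0161) and per 1000 peaks of its chromosome (0.131). Leaving out single libraries it ranged from -0.0421 to 0.378 at *Gata3*, -0.35 to 1.01 at *Trp63*, -0.898 to 0.513 at *Grhl2*, -0.147 to 0.596 at *Tfap2a* and -0.222 to 0.313 at *Klf5*. None of these reversed differences separated the groups, and the cause was not tested. The value per 1000 peaks of the chromosome and the alternatives for promoters were chosen after the data were seen.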
